A study of Mus musculus with 24 samples.

Results

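The Tmprss2, Mx1, Mx2 and Fam3b locus is a stretch of mouse chromosome 16 that holds 4 neighbouring genes, and Cdx2 binding across it was read from 12 peak lists of mouse colon organoids. The 4 genes were chosen from the libraries in which peaks had been called there and from the percentile of their fold enrichment, so the counts of libraries and the differences between colon sites are given as a description and without a test. A peak belonged to the locus when its summit lay inside 1 of the 4 gene bodies or within 50 kb to either side, at chr16:97397035-97661195 of mm10. Overlapping peaks of the 12 lists were merged into regions, and the locus held 18 of 61454 regions and 110 of 206283 peaks.

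Cdx2 was mapped by ChIPmentation, in which a transposase inserts sequencing adapters into immunoprecipitated chromatin on beads. By the ChIP methods the organoids came from the proximal or the distal colon of 3 mice. They had been grown for 4 months in WENR-plus medium with Wnt3a, EGF, Noggin and R-spondin 1. The organoid culture methods name female mice aged 8 weeks but speak of 2 mice. The study's reporting form lists an older age for the strains. After 2 days in WENR-plus medium, the WENR-minus groups spent 3 days in medium lacking all of these factors. Each colon site was profiled in each medium with 3 Cdx2 libraries, which gave 4 groups. The labels do not tie single libraries to mice, and an n of 6 counts libraries, not animals. By the organoid culture methods the mice carried a heterozygous Cre-inducible BrafV600E allele and a heterozygous tdTomato reporter. The ChIP methods repeat no genotype, so it is taken to hold for all 4 groups, and no group is described as lacking these alleles. Per the paper, Braf is expressed in its normal form until Cre acts. Neither the labels nor the methods name a Cre treatment for these cultures. The organoids are epithelial cultures, and each library was made from bulk chromatin.

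Cdx2 is a homeobox transcription factor that maintains intestinal identity, and it binds an AT-rich motif in promoters and in distant enhancers. Tmprss2 is a membrane-anchored serine protease of epithelial cells, best known for cleaving the surface proteins of influenza viruses and coronaviruses. Mx1 and Mx2 are interferon-induced GTPases that block virus replication, and both are disrupted in many laboratory mouse strains. Fam3b, also called PANDER, is a secreted protein of the pancreas and gut epithelium.

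Of the 4 genes, Tmprss2 (ENSMUSG00000000385) lay at chr16:97564682-97611195 on the minus strand in the GENCODE vM21 annotation. Mx2 (ENSMUSG00000023341) lay next to it at chr16:97535308-97560900 on the plus strand and was annotated as a polymorphic pseudogene. Fam3b (ENSMUSG00000022938) lay at chr16:97470965-97514816 and Mx1 (ENSMUSG00000000386) at chr16:97447035-97462907, both on the minus strand. GENCODE lists Mx1 as protein coding, whereas RefSeq lists it as a transcribed pseudogene. Of the 18 regions, 8 lay in introns, 10 were intergenic and 0 had their summit in an exon. In all, 8 regions lay upstream of Tmprss2, 2 inside Tmprss2, 3 inside Fam3b, 1 inside Mx1 and 1 inside Mx2, and the other 3 lay in Bace2 or between Fam3b and Mx2. The regions upstream of Tmprss2 were intergenic in GENCODE but lay inside a predicted RefSeq transcript of Tmprss2 that starts at position 97659541. The curated RefSeq transcript of Fam3b starts at position 97504936, so the GENCODE gene body beyond that position lies upstream of Fam3b in RefSeq.

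The sites are named below by the distance of the median summit from the outermost annotated start of the gene, with a minus sign for upstream. For the 5 regions called in all 12 libraries and the 1 called in 11, the 101 bases around the median summit are shown from the plus strand of GRCm38, since these sites carry the results that follow. Capitals mark the Cdx2 motif, searched on both strands as TTTAT followed by G or T and then by A or G, or its reverse complement.
Tmprss2 −1.95 kb, chr16:97613098-97613198: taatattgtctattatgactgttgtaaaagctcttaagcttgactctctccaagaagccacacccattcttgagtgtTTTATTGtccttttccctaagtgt
Tmprss2 −9.24 kb, chr16:97620386-97620486: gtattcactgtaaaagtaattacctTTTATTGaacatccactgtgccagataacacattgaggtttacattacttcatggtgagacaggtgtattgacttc
Tmprss2 +5.00 kb, chr16:97606143-97606243: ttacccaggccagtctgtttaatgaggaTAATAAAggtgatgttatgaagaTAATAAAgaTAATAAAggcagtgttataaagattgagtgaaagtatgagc
Tmprss2 −25.6 kb, chr16:97636740-97636840: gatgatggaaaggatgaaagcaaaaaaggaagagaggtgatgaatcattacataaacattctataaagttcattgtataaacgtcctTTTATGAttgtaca
Mx1 +3.15 kb, chr16:97459705-97459805: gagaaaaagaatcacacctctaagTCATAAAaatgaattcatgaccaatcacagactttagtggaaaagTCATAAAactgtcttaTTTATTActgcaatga
Fam3b +3.73 kb, chr16:97511036-97511136: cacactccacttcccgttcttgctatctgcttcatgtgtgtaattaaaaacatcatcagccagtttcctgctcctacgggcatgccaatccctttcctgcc

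The Tmprss2 −1.95 kb site and the Tmprss2 −9.24 kb site each held 1 motif, with the same letters, while the Tmprss2 +5.00 kb site and the Mx1 +3.15 kb site each held 3. The Fam3b +3.73 kb window held none. Over the locus, 10 of 18 regions held the motif within 50 bp of the median summit, against 60.4% of all 61454 regions, 73.1% of the 2079 that each library shared and 11.7% of windows of the same length 1000 bp from a summit. A GATA factor motif, searched as AGATAA or TGATAA on both strands, was found in the windows of 3 of the 18 regions, the Tmprss2 +5.00 kb, −9.24 kb and −28.7 kb sites, and in 18.3% of all windows. At the Tmprss2 +5.00 kb site its letters overlapped those of the Cdx2 motif. The interferon-stimulated response element, through which interferon acts on Mx genes, was found in 0 of the 18 windows and in 1.21% of all windows. These matches describe the letters near the summits only.

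**Figure D1:**
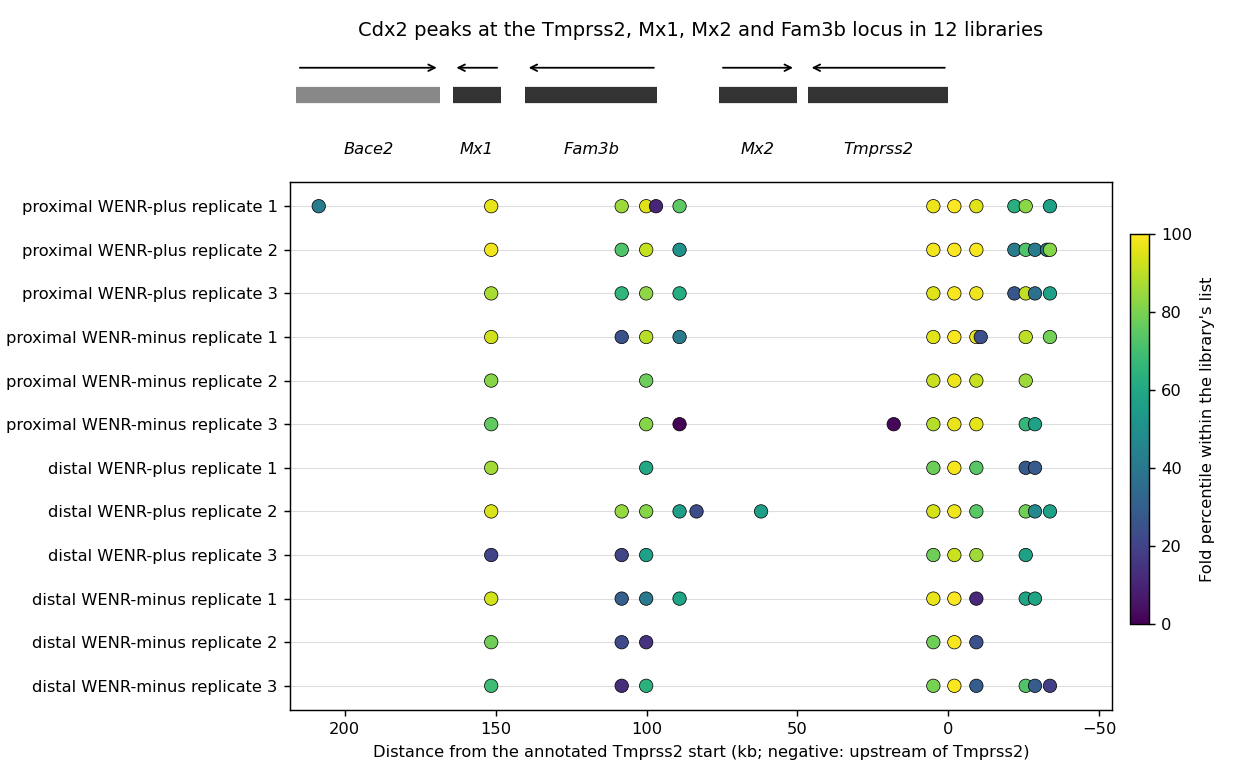
Cdx2 peaks of each of the 12 libraries (rows) by distance in kb from the annotated Tmprss2 start (horizontal axis, negative upstream), with gene bodies and their direction above. Each point is 1 region called in that library, coloured by the percentile of its fold enrichment within the library's list, and 5 columns of points are filled in all 12 rows.

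Cdx2 was called in all 12 libraries at 5 places of the locus, 3 at Tmprss2, 1 in Mx1 and 1 in Fam3b. Genome-wide, 3.38% of regions were called in all 12 libraries, against these 5 of 18. At least 6 libraries held 10 of the 18 regions, against 19.9% of all regions, and 7 of the 18 were called in 1 library only, against 42.2% of all regions. Mx2 held 1 region, in its intron, called in distal WENR-plus replicate 2 alone at a fold enrichment of 6.22. A protein-coding gene with at least 1 region called in all 12 libraries in its body or within 50 kb was found for 12.9% of 21938 genes, and as many as the 3 of Tmprss2 for 0.615%.

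The strongest site of the locus was the Tmprss2 −1.95 kb site, chr16:97612649-97613672, which ranked first of the locus regions in each of the 12 libraries. Its fold enrichment, the pileup at the summit over the local background of the matched input, was 27.3, 28.2 and 27.0 in proximal WENR-plus replicates 1, 2 and 3. It was 24.99, 17.3 and 17.7 in proximal WENR-minus replicates 1 to 3. Distal WENR-plus libraries gave 18.1, 15.99 and 11.5, and distal WENR-minus libraries 21.3, 17.0 and 19.9. Since each fold is set by the depth and input of its own library, folds were also placed as the percent of the library's own peaks at or below them, the fold percentile. On that scale the site lay between 91.9 and 99.6 in the 12 libraries, with a mean of 98.5 ± 1.26 (SD, n = 6) in proximal and 97.6 ± 2.88 (SD, n = 6) in distal organoids. The lowest value was that of distal WENR-plus replicate 3, whose list was the shortest, and the proximal and distal ranges overlapped. The site ranked 106 of the 2079 regions called in all 12 libraries by its mean percentile. Its summit fell within 5 bp of the median position in 11 of the 12 libraries and 48 bp away in distal WENR-minus replicate 3. In each of the 12 libraries the motif lay within 50 bp of that library's own summit.

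The 5 regions elsewhere whose fold percentiles were most like those of this site, by the mean absolute difference over the 12 libraries, lay nearest to Trim24 on chromosome 6, P2ry1 on chromosome 3, Kcnu1 on chromosome 8, Pigm on chromosome 1 and Hivep2 on chromosome 10. In the same order, these regions lay 10.1, 9.93, 12.4, 5.77 and 265 kb from the start of the named gene. Their mean differences from the Tmprss2 −1.95 kb site ran from 0.75 to 1.03 percentile points.

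The Tmprss2 −9.24 kb site, chr16:97619972-97620950, was called in all 12 libraries but at very different strength. Its fold enrichment was 12.6, 21.6 and 20.7 in proximal WENR-plus libraries and 16.9, 11.3 and 16.5 in proximal WENR-minus replicates 1 to 3. It was 7.78, 7.57 and 9.82 in distal WENR-plus and 4.02, 5.04 and 5.13 in distal WENR-minus replicates 1 to 3. All 6 proximal folds were above all 6 distal folds, which held for this site alone of the 5, against 11.8% of the 2079 regions. Proximal WENR-plus organoids had fold percentiles of 95.1, 98.8 and 97.4, and proximal WENR-minus organoids had 97.5, 91.4 and 95.8. They were 73.6, 74.1 and 85.9 in distal WENR-plus organoids, and 11.5, 24.7 and 29.6 in distal WENR-minus organoids. The 4 groups thus stood at 97.1 ± 1.89, 94.9 ± 3.15, 77.9 ± 6.97 and 21.9 ± 9.37 (SD, n = 3 each), and the lowest group did not overlap with the next. The −log10 q-values followed the same order, from 23.7 to 71.2 in the proximal, 10.6 to 15.7 in the distal WENR-plus and 4.62 to 6.16 in the distal WENR-minus libraries. The called peak was 628 to 951 bp wide in proximal and 168 to 382 bp wide in distal libraries.

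By colon site, the Tmprss2 −9.24 kb site had a mean fold percentile of 96.0 ± 2.61 in proximal and 49.9 ± 31.5 in distal organoids (SD, n = 6 each), a difference of 46.1 points. All 6 proximal values lay above all 6 distal values, as for 5.48% of the 2079 regions, while the reverse order was seen for 0.144% of them and for 0 of the 5 at the locus. This difference ranked 12 among the 2079 regions, whose median difference was 7.03 points. Distal lists held 5608 to 21040 peaks and proximal lists 11409 to 42192, and the part of list length in these differences was not tested. When every list was shortened to its 5608 strongest peaks by p-value, with an absent region set to 0, the proximal percentiles of the site ran from 72.0 to 93.7. The distal WENR-plus percentiles were then 65.2, 38.3 and 85.9, so that the sites overlapped, and those of distal WENR-minus were 0, 5.40 and 4.40. Set against the −1.95 kb site of the same library, the fold at −9.24 kb was 71.0 ± 15.7% in proximal and 41.6 ± 23.9% in distal organoids (SD, n = 6), and these ranges overlapped as well.

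**Figure D2:**
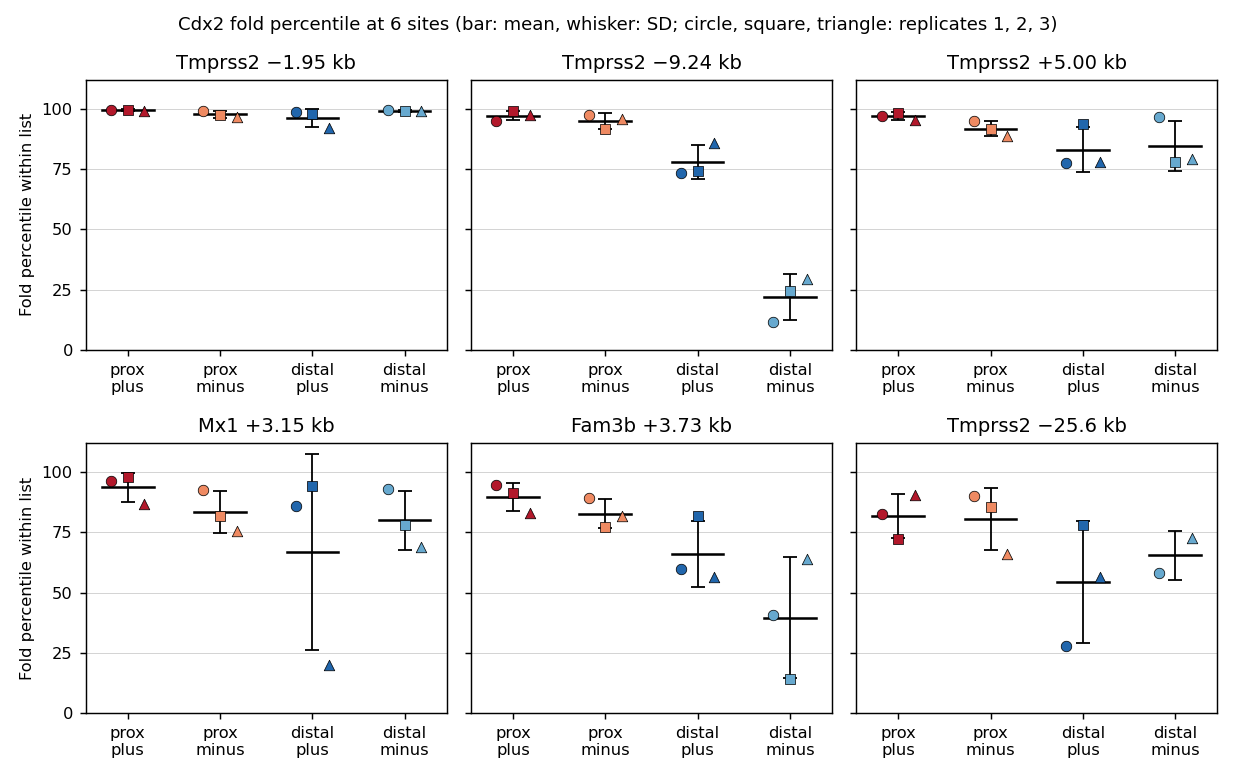
Fold percentile within the library's own list (vertical axis, percent) at 6 sites of the locus, by group, with 1 point per library, a bar for the mean and a whisker for the SD of 3 libraries (2 for distal WENR-minus at Tmprss2 −25.6 kb). The Tmprss2 −1.95 kb site stays between 91.9 and 99.6 in all 12 libraries, whereas the Tmprss2 −9.24 kb site ranges from 91.4 to 98.8 in proximal and from 11.5 to 85.9 in distal libraries.

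Between media, the Tmprss2 −9.24 kb site stood 55.9 ± 6.74 points (SE, n = 3 per group) higher in distal WENR-plus than in distal WENR-minus organoids, and 2.19 ± 2.12 points higher with than without the factors in proximal organoids. In fold enrichment, the distal WENR-plus mean was 1.77 times the distal WENR-minus mean. The distal difference was the largest of the 2079 regions, whose median was −1.90 points. The 2 medium differences stood 53.7 points apart (permutation of colon site within each medium, two-sided, p = 0.1, adjusted p = 0.996 over 2079 regions). These labelings assume no effect of colon site at all, and the level here differed between colon sites. This p therefore cannot decide whether the medium effect differs between colon sites, and such a difference was not established. All 3 distal WENR-plus values lay above all 3 distal WENR-minus values at 1 of the 5 sites, this one, against 3.37% of the 2079 regions. Distal WENR-minus replicate 1, which had the longest distal list at 21040 peaks, gave the lowest percentile at this site and the highest distal percentile, 99.5, at the −1.95 kb site. Across both colon sites the mean difference between media was 29.1 points (two-sided exact permutation test of medium within colon site, p = 0.025, adjusted p = 0.468 over 2079 regions by Benjamini-Hochberg). The difference therefore did not pass the adjusted threshold. Of the 5 sites, 1 had an unadjusted p under 0.05 in the medium test, against 8.13% of the 2079 regions, and 0 passed after adjustment, here or among all 2079, where the lowest adjusted p was 0.371. The count of sites with an unadjusted p under 0.05 was 2 of 5 with log2 fold in place of the percentile, the second being the Fam3b +3.73 kb site, and 0 of 5 with a replicate block. At the smallest p the test allows, 208 of the 2079 regions would have to reach it for any to pass adjustment. Because the genes had been chosen with these lists known, these p-values are no independent evidence.

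**Figure D3:**
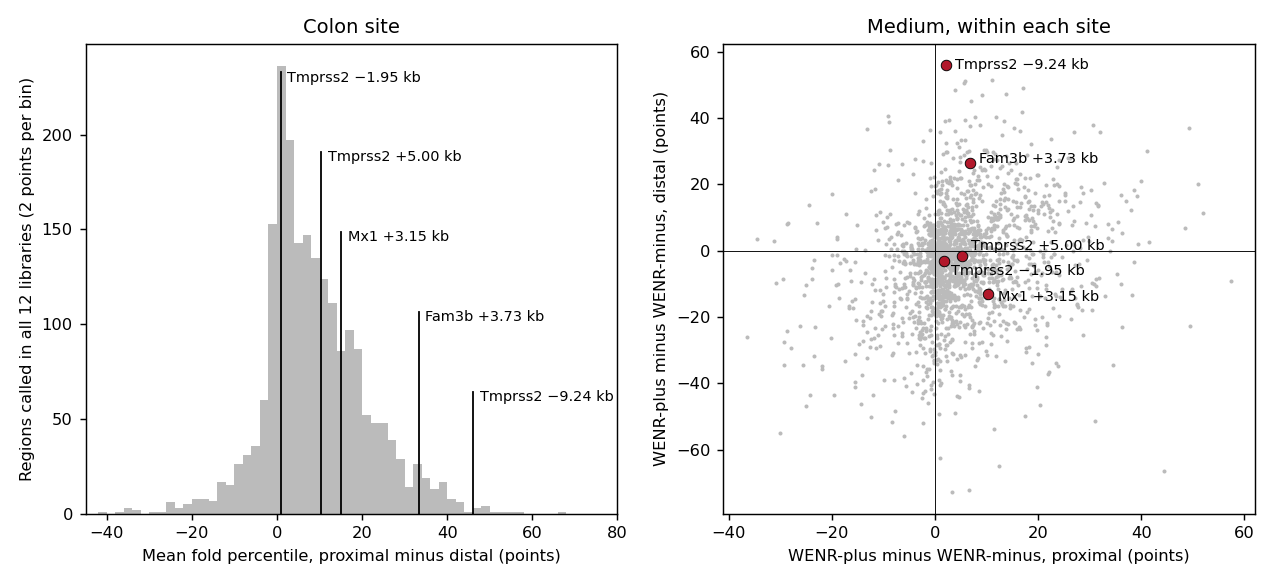
Left, number of regions called in all 12 libraries (vertical axis) by the proximal minus distal difference of the mean fold percentile in points (horizontal axis), with lines at the 5 sites of the locus. Right, difference between WENR-plus and WENR-minus in proximal (horizontal axis) and distal (vertical axis) organoids in points for the same 2079 regions (grey) and the 5 sites (red). The Tmprss2 −9.24 kb site lies at 46.1 points on the left and at 2.19 and 55.9 points on the right.

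The Tmprss2 +5.00 kb site lay in an intron, chr16:97605806-97606944, and its fold was 14.8, 19.4 and 17.1 in proximal WENR-plus libraries and 12.9, 11.4 and 11.4 in proximal WENR-minus replicates 1 to 3. Distal WENR-plus gave 8.06, 11.9 and 8.66, and distal WENR-minus 12.6, 7.49 and 8.36. Its fold percentile averaged 94.3 ± 3.61 in proximal and 83.9 ± 8.81 in distal organoids (SD, n = 6 each), and the ranges overlapped through distal WENR-plus replicate 2 and distal WENR-minus replicate 1. It was the single site of the 5 at which all 3 proximal WENR-plus values, 95.2 to 98.4, lay above all 3 proximal WENR-minus values, 88.7 to 95.04, an order found for 10.4% of the 2079 regions. The difference between media over both colon sites was 1.79 points (exact permutation test, two-sided, p = 0.57).

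The Mx1 +3.15 kb site, chr16:97459414-97460272, lay in an intron of Mx1 and 1.02 kb from the nearest start of a shorter Mx1 transcript. Its fold was 13.7, 18.0 and 11.4 in proximal WENR-plus libraries, 11.02, 8.49 and 8.15 in proximal WENR-minus, 9.26, 12.0 and 5.12 in distal WENR-plus and 10.01, 7.49 and 6.99 in distal WENR-minus replicates 1 to 3. The percentiles ran from 75.6 to 98.0 in proximal and from 20.3 to 94.3 in distal organoids, so the ranges overlapped. The value of 20.3 came from distal WENR-plus replicate 3, and the next lowest distal value was 69.0. Between media the difference was −1.38 points (exact permutation test, two-sided, p = 0.97). Each of the 12 libraries had the motif within 50 bp of its own summit, as at the Tmprss2 −1.95 kb site.

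The Fam3b +3.73 kb site, chr16:97510619-97511497, lay in an intron of Fam3b and 1.44 kb from the nearest start in the GENCODE annotation. By RefSeq the site lies upstream of Fam3b, whose curated transcript starts at position 97504936. Its fold was 12.0, 10.03 and 10.2 in proximal WENR-plus libraries, 9.40, 7.78 and 9.26 in proximal WENR-minus, 6.61, 8.64 and 6.83 in distal WENR-plus and 4.84, 4.65 and 6.64 in distal WENR-minus replicates 1 to 3. The fold percentile averaged 86.2 ± 6.52 in proximal and 52.9 ± 23.1 in distal organoids (SD, n = 6 each), a difference of 33.3 points that ranked 85 among the 2079 regions. The lowest proximal value, 77.4, lay below the highest distal value, 81.9. In lists of equal length the means were 51.3 ± 14.8 and 35.0 ± 27.4, a difference of 16.3 points, and the ranges overlapped in each medium. Set against the Tmprss2 −1.95 kb site of the same library, the fold was 42.1 ± 6.34% in proximal and 38.9 ± 14.7% in distal organoids (SD, n = 6 each). On the full lists, all 3 proximal values lay above all 3 distal values at 4 of the 5 sites in WENR-plus medium, the Mx1 site being the exception, against 27.3% of the 2079 regions. In WENR-minus medium this held at 2 of the 5, the Fam3b +3.73 kb and the Tmprss2 −9.24 kb sites, against 13.5%. In lists of equal length the counts were 0 of 5 in WENR-plus and 1 of 5 in WENR-minus medium, the Tmprss2 −9.24 kb site. Between media the Fam3b site differed by 16.7 points (exact permutation test, two-sided, p = 0.075, adjusted p = 0.634 over 2079 regions). Before adjustment, exact permutation gave p = 0.01 with log2 fold and p = 0.156 with a replicate block. Without replicate 2 the difference was 4.62 points. The locus was chosen with these lists known, so these p-values are no independent evidence. At the Fam3b +3.73 kb site only 5 of the 12 libraries had the motif within 50 bp of their own summit, and the summits were up to 176 bp from the median.

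**Figure D4:**
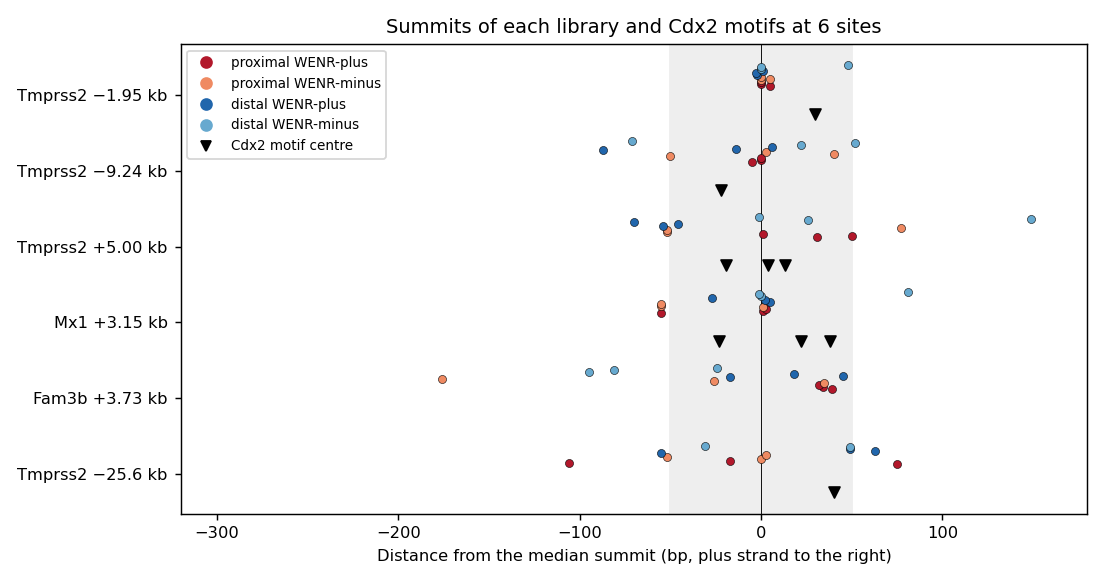
Summit of each library (points, coloured by group) and centre of each Cdx2 motif found within 50 bp of the median summit (triangles) at 6 sites, by distance in bp from the median summit (horizontal axis, shaded within 50 bp). At the Tmprss2 −1.95 kb site 11 of 12 summits lie within 5 bp of the median, while those of the Fam3b +3.73 kb site reach 176 bp.

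Further upstream of Tmprss2, no other site of the window was called in all 12 libraries. The Tmprss2 −25.6 kb site, chr16:97636547-97637125, was called in 11 libraries and missed in distal WENR-minus replicate 2. Its fold was 7.61, 6.53 and 12.9 in proximal WENR-plus libraries and 9.67, 9.20 and 7.03 in proximal WENR-minus replicates 1 to 3. Distal WENR-plus gave 5.42, 7.995 and 6.83, and distal WENR-minus 5.49 and 7.34 in the 2 libraries with the peak. Proximal percentiles, 66.04 to 90.3, overlapped with the distal ones, 27.9 to 78.3. The Tmprss2 −28.7 kb site, chr16:97639620-97640032, was called in 7 libraries, 3 proximal and 4 distal, at folds from 4.70 to 6.29. The Tmprss2 −33.6 kb site, chr16:97644599-97645102, was called in 6 libraries, the 3 of proximal WENR-plus and 1 of each other group, at folds from 4.59 to 7.52. Neither of these 2 regions held the Cdx2 motif.

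The Tmprss2 −21.8 kb site, chr16:97632821-97633091, was called in the 3 proximal WENR-plus libraries and in no other. Its fold was 5.89, 4.70 and 5.09 there, with fold percentiles of 63.3, 41.6 and 26.9 and a Cdx2 motif 1 bp from the median summit. It was the 1 region of 18 called in all 3 proximal WENR-plus and in no distal WENR-plus library, against 4.69% of all regions. It was also the 1 region of 18 called in all 3 proximal WENR-plus and in no proximal WENR-minus library, against 0.74%. In lists of equal length it was called in 0 libraries. No region of the locus was called in all 6 proximal and 0 distal libraries, an order seen for 1.04% of all regions, or in all 6 distal and 0 proximal libraries, seen for 0.0553%.

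At Fam3b, 2 weaker sites were called in at least 6 libraries. The Fam3b +11.8 kb site, chr16:97502644-97503257, lay in an intron and was called in 9 libraries. Its fold was 8.24, 6.53 and 7.44 in proximal WENR-plus libraries, 4.03 in 1 proximal WENR-minus library, 8.88 and 5.12 in 2 distal WENR-plus libraries and 4.52, 4.73 and 4.41 in distal WENR-minus replicates 1 to 3. The Fam3b −7.32 kb site, chr16:97521888-97522383, was intergenic and called in 5 proximal and 2 distal libraries at folds from 3.14 to 7.05. The 101 bases around its summit matched 22 places of the genome, its own included, at 90% identity or more over at least 50 bp, whereas the other 17 windows had no such second match. The remaining 7 regions, each called in 1 library, had folds from 3.47 to 6.22.

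The 12 libraries held 6 to 12 peaks each at the locus. Proximal libraries held 10 ± 2.28 and distal libraries 8.33 ± 2.16 (SD, n = 6 each), and the ranges overlapped. Per 10000 peaks of the list this was 4.99 ± 2.35 in proximal and 9.03 ± 2.91 in distal libraries, an order opposite to that of the counts. The peak lists hold no read totals, and the totals stated by the study were not used here, so list length is given as such and does not stand for sequencing depth.

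**Figure D5:**
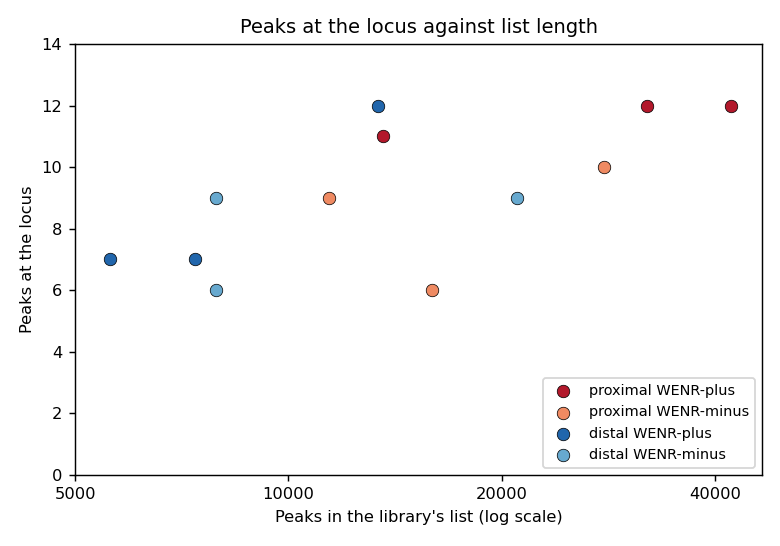
Number of peaks at the locus (vertical axis) against the number of peaks in the library's list (horizontal axis, log scale), 1 point per library, coloured by group. Lists of 5608 to 42192 peaks held between 6 and 12 peaks at the locus.

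The relatives of these genes were looked at in 3 lists. Among 19 type II transmembrane serine proteases, the protease family of Tmprss2, Tmprss2 was the one gene with a summit within 3 kb of a start in all 12 libraries, against 1.29% of all protein-coding genes. Of the other members, 5 had such a summit in 1 to 4 libraries and 13 in none, against 22.7% of all protein-coding genes with one in at least 1 library and 77.3% with none. Besides Tmprss2, St14, Tmprss7 and Tmprss11e of this list had a region called in all 12 libraries in the gene body or within 50 kb. With Tmprss2, which was chosen from its peaks, that made 4 of 19, against 12.9% of all protein-coding genes. Of the 4 Fam3 genes, Fam3b was called near a start in 12 libraries, Fam3c in 2, Oit1 (Fam3d) in 3 and Fam3a in 0. The shares of all protein-coding genes were, as above, 1.29% for all 12 libraries and 22.7% for at least 1. Of 26 interferon-induced antiviral genes, Mx1 was called near a start in 12 libraries, Mx2, Ifit1 and Oasl2 in 1 each and the other 22 in none, beside the same 77.3% of all protein-coding genes. For Mx1 and Fam3b the near start was an inner one, 1.02 and 1.44 kb from the median summit. The outermost starts lay 3.15 and 3.73 kb away, beyond the 3 kb limit. This inner Fam3b start is not that of the curated RefSeq transcript. The region 1.96 kb from the RefSeq start, the Fam3b +11.8 kb site, was called in 9 libraries. A region called in all 12 libraries lay in the body or within 50 kb of 3 of the 4 Fam3 genes, Fam3b included. The same held for 7 of the 26 antiviral genes, Mx1 and Mx2 included, beside the same 12.9%. The Fam3b +3.73 kb site was counted for Fam3b, Mx1 and Mx2 alike. Since Tmprss2, Fam3b, Mx1 and Mx2 were chosen from their peaks, their share in these counts is no evidence about the lists.

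The nearest region outside the window lay 9.28 kb beyond it at chr16:97669994-97670910, upstream of Tmprss2, and was called in all 12 libraries at a median fold percentile of 81.9. The nearest region inside that border was the Tmprss2 −33.6 kb site, 16.4 kb from it. On the Mx1 side the nearest region inside lay 5.60 kb from the border and was called in 1 library, and the nearest outside lay 33.3 kb beyond and was called in 2.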

How the data were processed

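The 12 Cdx2 peak lists were used, and the 12 input libraries were not analysed here. Reads had been trimmed (Trimmomatic 0.39), mapped to mm10 (Bowtie2 2.4.5) and freed of duplicates (SAMtools 1.13), with versions from the submitters' processing notes, while the study's supplement names other versions of Bowtie2 and SAMtools. For each library the authors then ran MACS2 2.2.7.1 with its own input as control and a q-value limit of 0.01. The deposited lists give, per peak, a score, a fold enrichment (a ratio to the local background), and the −log10 of the p-value and of the q-value, all made by the authors. They hold no read counts.

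Peaks sharing 1 bp or more were joined into regions on chromosomes 1 to 19, X and Y, and 1024 peaks elsewhere were left out. The fold percentile is the percent of a list's peaks at or below a fold. Medium was tested by a two-sided exact permutation test within colon site (400 labelings, smallest possible p = 0.005) over the 2079 regions called in all 12 libraries, with Benjamini-Hochberg adjustment. On simulated data for this test with 2079 regions, 99.5% of 200 regions shifted by 25 points and 4.95% of the others had an unadjusted p under 0.05, and 0 passed after adjustment. Since 208 regions must reach the smallest p for any to pass, the 200 shifted ones alone could not have passed. The adjusted count therefore does not measure what the adjusted test can detect. Whether the medium difference differed between colon sites was tested by permuting the colon site within each medium, also with 400 labelings. These labelings assume that colon site has no effect at all, so the p is not exact for that question alone. Python 3.11.15, numpy 2.4.6, pandas 2.3.3, pysam 0.24.0 and BLAST+ 2.17.0 were used, with the GENCODE vM21 annotation and the RefSeq GRCm38 sequence, the same assembly as mm10.

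The members, gene lists and tests were chosen with earlier results of these data known. Named were regions called in at least 6 libraries, up to 3 regions with the largest proximal minus distal or distal minus proximal difference in libraries (at least 2), list genes called near a start in all 12 libraries, and the 5 regions most like the strongest one. Lists were also shortened, filtered and rebuilt as described in the closing section. Replicates share a number across groups in the labels, and the labels do not tie a number to a mouse.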

Additional observations from a re-analysis of the deposited data

Results flagged for a closer look

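At the Tmprss2 −1.95 kb site the medium difference in fold percentile was 4.67 points smaller in distal than in proximal organoids, a value of −4.67, and a permutation test of colon site within each medium gave p = 0.015 (two-sided). That test can also respond to a difference in level or spread between colon sites. The WENR-plus minus WENR-minus difference was 1.67 points in proximal and −3.00 points in distal organoids (n = 3 per group), and all values stayed at or above the percentile of 91.9. The adjusted p was 0.996 over 2079 regions (Benjamini-Hochberg, the same permutation test), 65 of which (3.13%) had an unadjusted p under 0.05 and 0 an adjusted one, so the difference did not pass. The locus was chosen from these same fold percentiles, so this p is no independent evidence.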

How the results depend on the processing

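With peaks of −log10 q of at least 5, 2 regions of the locus were called in all 12 libraries in place of 5, the Tmprss2 −1.95 kb and +5.00 kb sites. With lists of equal length (5608 peaks) 9 of 18 regions were left and 3 were called in all libraries. The share of 3.38% of all regions belongs to the full lists. Shares at these 2 settings are not given here, so the changes cannot be set against those of all regions. Within 1 kb of a start 1 region was found in place of 8 within 3 kb, and 6 with the 3 kb limit and starts of protein-coding genes only. The 8 include regions called in 1 library only. The share of all regions this near a start is not given here, so these counts describe the locus alone. Of the alternatives chosen after seeing the data, the count of sites with all proximal above all distal values went from 1 to 0 with the fold set against the strongest site of the library and to 0 in lists of equal length. Leaving out 1 replicate number at a time gave 1 to 2, the 2 (with the Fam3b +3.73 kb site) without replicate 2. Within WENR-plus medium this count was 4, and 0 with the fold set against the strongest site or in lists of equal length. It was 3 with −log10 p and 4 to 5 with replicates left out. Within WENR-minus medium it was 2, and 1 in lists of equal length and 2 to 3 with replicates left out. The number of sites with an unadjusted medium p under 0.05 was 1, and 2 with log2 fold (exact permutation p = 0.01 at Fam3b +3.73 kb), 0 with the replicate block and 0 with replicates left out, where the smallest possible p is 0.0556. The cause of these changes was not tested. The medium difference changed sign at the Mx1 +3.15 kb site with log2 fold (0.33), at the Tmprss2 −1.95 kb site with log2 fold (0.055), and when replicates were left out, where it ran from −2.97 to 6.96 points at Tmprss2 +5.00 kb, from −10.2 to 7.30 at Mx1 +3.15 kb and from −1.28 to 0.171 at Tmprss2 −1.95 kb. At the Tmprss2 −9.24 kb site it ran from 28.7 to 29.4 points. At the Fam3b +3.73 kb site it ran from 4.62 to 26.5 points, the lowest without replicate 2. With a replicate block, the exact permutation p at the Tmprss2 −9.24 kb site was 0.0938 (64 labelings, smallest possible p = 0.0312), and 128 of the 2079 regions had an unadjusted p under 0.05 in place of 169, 0 of them adjusted. Samples of the same number in a colon site had deviations that correlated from −0.0551 to 0.359 over the 2079 regions, and not every sample correlated best with its own number. The other alternatives run changed none of these counts by over 1.5 times and no sign of the medium difference. A region missing from a list is not shown to be absent.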
